A study of Mus musculus with 11 samples.

Results

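The genes described here encode the machinery by which a nerve cell releases transmitter: the vesicle proteins, the SNARE fusion proteins, their regulators and the proteins that retrieve vesicle membrane. A list of 35 such genes was taken, and every probe set annotated to 1 of them and to no other gene was used. Of the 35 genes, 31 had such a probe set, out of 12393 genes in the whole table, and 30 passed the filter on low signal, out of 8433. Sv2b, Sv2c, Rims1 and Synj1 were not analysed here, and Rph3a, a Rab3 effector, stayed below the filter on its only probe set. The 31 genes had 60 probe sets, of which 56 passed the filter. RNA came from sympathetic ganglia of male C57BL mice aged 78 weeks, kept on normal chow. The apoE-/- genotype, which lacks apolipoprotein E throughout the body, gave 6 arrays and wild-type mice gave 5. The tissue was cut out of frozen ganglia by laser capture microdissection, and no label says which animal an array came from. Where several arrays were made from the same animal, p-values are too small. Where they were not, p-values set the groups against the spread of these samples, part of which may be technical.

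Sympathetic neurons release noradrenaline from small vesicles along their axons. Vesicles are held near the release site by synapsins and Rab3 proteins, made ready by Munc13 proteins, and fused with the cell membrane when the vesicle SNARE synaptobrevin zips up with the membrane SNAREs syntaxin and SNAP-25. Synaptotagmins sense the calcium that triggers the step, complexins hold the partly zipped complex, and NSF with its SNAP adaptors takes the spent complex apart. Dynamin and amphiphysin then help to pinch the membrane back into the cell. The ganglion holds the cell bodies of these neurons, while most of their release sites lie in the target organs, so the RNA measured is that of the cell bodies and of the other cells in the tissue.

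No gene of the machinery passed the test, although a Rab3c probe set did. Of the 30 genes, 0 had an adjusted p under 0.05 in limma (moderated linear model with Benjamini-Hochberg adjustment over 8433 genes), where 1.93% of all genes tested had one, 1.26% in the higher and 0.676% in the lower direction. At an unadjusted limma p under 0.05, 1 gene was higher in Apoe-deficient ganglia and 9 were lower, against 7.92% and 12.3% of all genes tested, or 20.3% in either direction. The difference was below 0 for 20 of the 30 genes, as it was for 57% of all genes. The median difference was -0.19 on the log2(signal + 16) scale, against -0.041 over all genes, and the 30 values ran from -0.66 for Syn2 to 0.61 for Rab3c. In no gene did the 6 Apoe-deficient arrays stand clear of the 5 wild-type arrays, where 2.96% of all genes had groups without overlap, 1.46% with the Apoe-deficient arrays higher and 1.51% with them lower. The size of the shift depended on the processing: the median was -0.056 when probe sets were averaged and -0.035 over the 56 probe sets. It was -0.068 with the hybridisation control level, a technical measure of the arrays, as a block, and -0.083 without the 3 arrays of low level. All differences below are Apoe-deficient minus wild-type, in log2(signal + 16), and understate the change of dim probe sets.

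**Figure D1:**
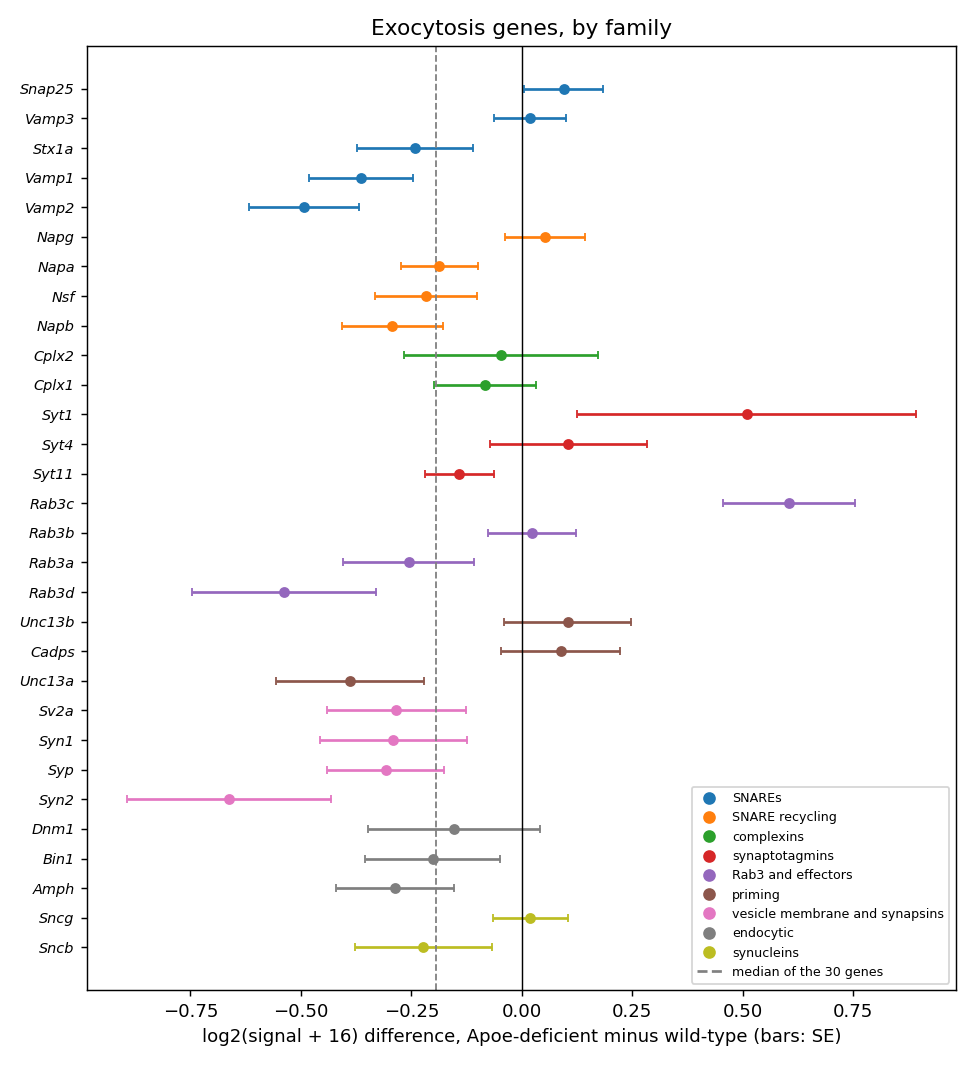
Difference of each of the 30 genes in log2(signal + 16), Apoe-deficient minus wild-type, with bars for the standard error and colours for the family. The 4 genes of the vesicle membrane and synapsin family all lie left of 0, Rab3c lies farthest right at 0.61, and the dashed line marks the median of -0.19.

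The Apoe signal checked the labels, with 7.2 to 268.2 in the Apoe-deficient arrays and 11830.3 to 19649.2 in the wild-type arrays. The tissue label was borne out by Th and Dbh, the noradrenaline synthesis genes, which averaged 13.76 and 13.50 in Apoe-deficient and 13.71 and 13.70 in wild-type ganglia. Several technical measures varied between arrays. The mean signal of 18 hybridisation control probe sets was cut into 3 levels at its 2 largest gaps on the log scale. The levels spanned 1834 to 2126, 3489 to 4215 and 5700 to 9532, so arrays also differed within a level. Only Apoe-deficient arrays (replicates 2, 3 and 4) had the low level, while Apoe-deficient replicate 5 shared the middle level with wild-type replicates 3, 4 and 5. The high level held Apoe-deficient replicates 1 and 6 beside wild-type replicates 1 and 2. The signal of the polyA control probe sets was also lowest in the 3 arrays of low level. It was 167 to 520 there and 1149 to 2853 in the other arrays. With 1 Apoe-deficient array the middle level was too small to compare within, so within-level values come from the high level, 2 arrays against 2. The ratio of the 3' to the 5' actin control probe set, which tends to be higher in degraded RNA, was 5.16 in Apoe-deficient replicate 1, 3.55 in wild-type replicate 1 and between 1.88 and 2.90 in the other 9 arrays. Apoe-deficient replicate 1 and wild-type replicate 1 are both in the high level. Each group compared within that level therefore includes its array of highest actin ratio, and the part of that ratio in within-level values was not tested.

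The Rab3 family was split in direction. Rab3 proteins are small GTPases that ride on secretory vesicles; Rab3a and Rab3c are the neuronal forms, Rab3b is found in neurons and endocrine cells, and Rab3d is best known from exocrine and other secretory cells. Rab3c had the smallest p of the 30 genes. Its brightest probe set, 1432432_a_at, gave 9.44, 9.62 and 9.94 as the lowest, median and highest of the 6 Apoe-deficient arrays, against 8.65, 9.11, 9.13, 9.50 and 8.77 in wild-type arrays. Of the Apoe-deficient arrays, 4 lay above every wild-type array, and only wild-type replicate 4 reached into their range. The mean was 9.64 ± 0.19 (SD, n = 6) in Apoe-deficient and 9.03 ± 0.33 (SD, n = 5) in wild-type ganglia, a difference of 0.61 (SE 0.15, limma adjusted p = 0.051; exact two-sided permutation p = 0.013).

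A second Rab3c probe set, 1449494_at, gave nearly the same difference and separated the groups. Its values were 9.13, 9.33 and 9.69 as the lowest, median and highest Apoe-deficient array, against 8.57, 8.87, 8.80, 9.02 and 8.59 in wild-type arrays. All 6 Apoe-deficient arrays lay above all 5 wild-type arrays, a pattern seen in the higher direction in 1.4% of the probe sets past the filter. The difference was 0.60 (SE 0.13), and it was the only 1 of the 56 probe sets of the machinery to pass when every probe set past the filter was tested (limma adjusted p = 0.031), where 1.43% of them passed. It also passed among all probe sets without a filter (limma adjusted p = 0.045), where 0.734% did. The dimmest Rab3c probe set, 1432415_at, which lay below the filter, differed by 0.089.

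The Rab3c difference stayed between 0.49 and 0.57 with the control level taken into account, but was not called. For 1449494_at it was 0.52 (limma adjusted p = 0.21) after blocking on the hybridisation control level and 0.49 (limma adjusted p = 0.63) within the high level. For 1432432_a_at both settings gave 0.57, with limma adjusted p of 0.22 and 0.48. Without 1 array at a time, the adjusted p of 1449494_at in limma ran from 0.018 to 0.10, and 4 of the 11 fits called it.

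Rab3d lay on the other side. Its brightest probe set, 1418891_a_at, gave 9.66, 10.58 and 11.06 as the lowest, median and highest Apoe-deficient array, against 11.18, 11.32, 11.17, 10.95 and 10.80 in wild-type arrays. Apoe-deficient replicates 5 and 6 reached into the wild-type range and the other 4 lay below it. The difference was -0.54 (SE 0.21, limma adjusted p = 0.18; exact permutation p = 0.035). All 4 Rab3d probe sets were negative, at -0.54, -0.50, -0.41 and -0.17, and in the tightest of them, 1449259_at, 5 of 6 Apoe-deficient arrays lay below every wild-type array. After blocking on the control level the difference of 1418891_a_at was -0.28 (limma adjusted p = 0.70), and within the high level it was -0.55. Rab3a differed by -0.26 (limma adjusted p = 0.33) and Rab3b by 0.024 (limma adjusted p = 0.91). Rab3b, whose sign turned in several settings, gave 12.14 to 12.43 in Apoe-deficient and 12.00 to 12.52 in wild-type arrays. The dim Rph3a probe set differed by -0.49, with overlapping groups.

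**Figure D2:**
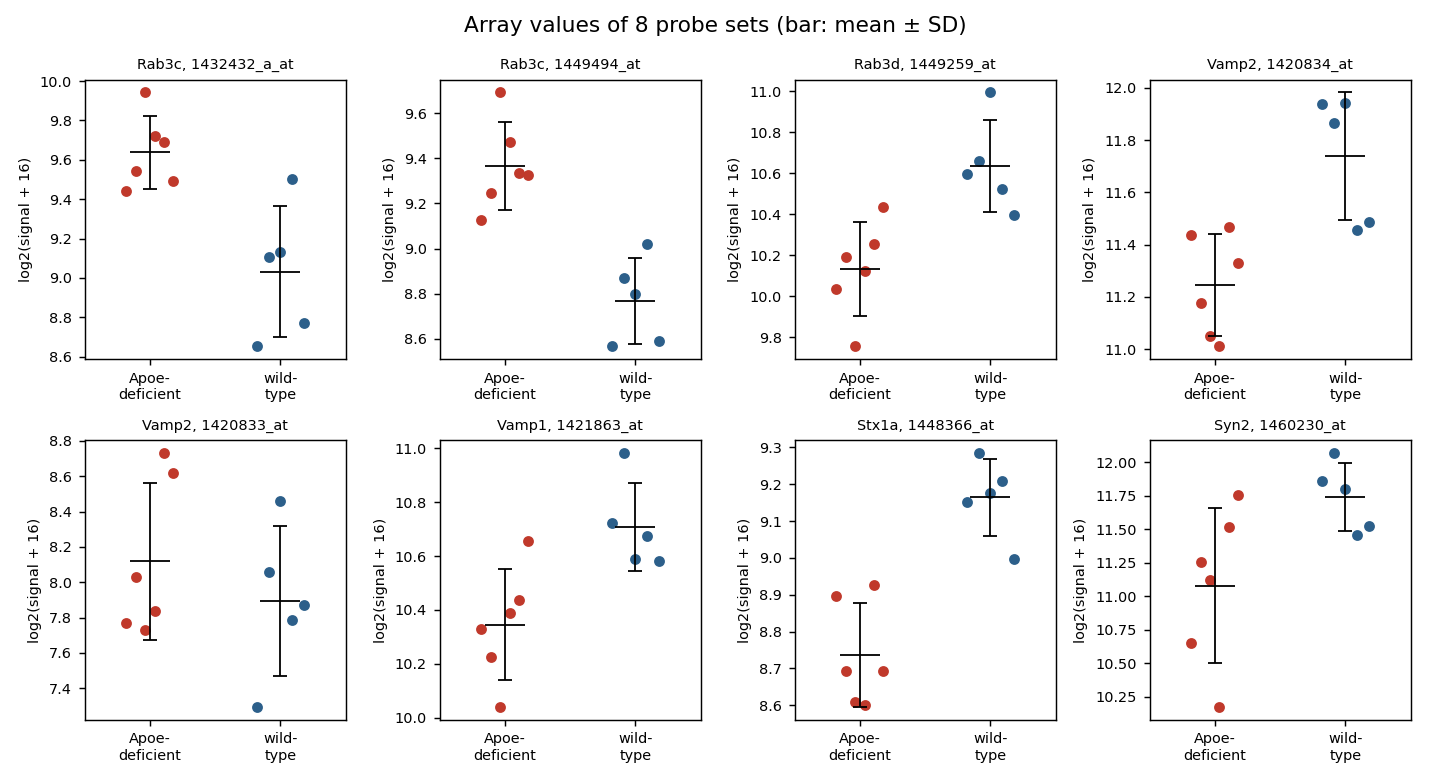
Values of 8 probe sets in each array in log2(signal + 16), Apoe-deficient left of wild-type in each panel, with a bar for the mean and SD. Rab3c 1449494_at and Stx1a 1448366_at show groups that do not overlap, and the second Vamp2 probe set, 1420833_at, goes the other way from the first.

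The promoters of Rab3c and Rab3d are printed as RefSeq gives them on GRCm38.p6, in the direction of the gene. They run from 250 bases before to 50 bases after the annotated start. These Rab3 genes had the most positive and the most negative difference of the family, and neither passed the test as a gene. Capitals mark matches on either strand to the GC box GGGCGG and to TGACG, the core of the cAMP response element; the TATA box letters TATAAA occur in neither.
Rab3c, chr13:110280157-110280456, minus strand: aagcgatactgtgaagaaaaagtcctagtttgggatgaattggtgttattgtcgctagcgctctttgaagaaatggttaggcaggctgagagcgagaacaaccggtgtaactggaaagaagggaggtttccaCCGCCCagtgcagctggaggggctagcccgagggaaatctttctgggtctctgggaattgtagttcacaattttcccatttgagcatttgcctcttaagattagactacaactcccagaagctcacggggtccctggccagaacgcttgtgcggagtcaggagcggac
Rab3d, chr9:21918134-21918433, minus strand: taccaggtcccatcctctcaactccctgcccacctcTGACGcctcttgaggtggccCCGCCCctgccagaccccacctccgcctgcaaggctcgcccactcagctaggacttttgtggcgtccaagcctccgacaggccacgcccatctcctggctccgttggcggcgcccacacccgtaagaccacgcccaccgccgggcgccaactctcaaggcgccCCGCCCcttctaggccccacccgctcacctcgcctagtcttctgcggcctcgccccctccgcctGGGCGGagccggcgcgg
The Rab3c window had 50.7% G and C with 1 GC box, and the Rab3d window 71.0% with 3 GC boxes and 1 TGACG. Over the machinery, 29 of the genes matched 38 promoters of this table. The GC box letters occurred in 60.5% of these promoters and in 35.7% of all 32851, TGACG in 28.9% and 20.8%, and TATAAA in 7.89% and 13.6%. The median G and C content was 61.2% in the 38 promoters and 52.7% in all of them. These are counts of letters only, and binding of any factor was not measured.

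Among the SNAREs, the fusion proteins themselves, 3 of 5 genes had a negative difference and the family median was -0.24. Vamp2 encodes synaptobrevin-2, the main vesicle SNARE of neurons, and had the smallest p of the genes with a negative difference. Its brightest probe set, 1420834_at, gave 11.01, 11.25 and 11.47 as the lowest, median and highest Apoe-deficient array, against 11.94, 11.87, 11.94, 11.46 and 11.49 in wild-type arrays. All but the highest Apoe-deficient array lay below every wild-type array. The difference was -0.49 (SE 0.12, limma adjusted p = 0.055; exact permutation p = 0.0087). The second Vamp2 probe set, 1420833_at, gave 7.73, 7.93 and 8.73 as the lowest, median and highest Apoe-deficient array, against 7.29, 8.06, 8.46, 7.79 and 7.87 in wild-type arrays. Its groups overlapped widely and its difference was 0.23, so the mean of the probe sets differed by -0.13 (limma adjusted p = 0.64). After blocking on the control level 1420834_at differed by -0.36 (limma adjusted p = 0.30), and within the high level by -0.54.

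Vamp1, the close relative of Vamp2, showed the same division. Probe set 1421863_at gave 10.04, 10.36 and 10.66 as the lowest, median and highest Apoe-deficient array, against 10.72, 10.98, 10.59, 10.67 and 10.58 in wild-type arrays. Of the Apoe-deficient arrays, 5 lay below the wild-type range. The difference was -0.36 (SE 0.12, limma adjusted p = 0.12; exact permutation p = 0.013), while the dimmer 1421862_a_at differed by 0.10 with groups that overlapped. After blocking on the control level 1421863_at differed by -0.28 (limma adjusted p = 0.42). Vamp3, the cellubrevin of non-neuronal cells, had 5 probe sets that differed by 0.33, 0.041, 0.018, -0.015 and -0.20, the brightest by 0.018.

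Stx1a encodes syntaxin-1A, the membrane SNARE. Its brightest probe set, 1437390_x_at, gave 10.99, 11.50 and 11.69 as the lowest, median and highest Apoe-deficient array, against 11.69, 11.77, 11.71, 11.53 and 11.61 in wild-type arrays. The 3 Apoe-deficient arrays below the wild-type range, at 11.33, 11.16 and 10.99, were those of the low control level. The difference was -0.24 (limma adjusted p = 0.31) over all arrays, -0.059 within the high level and 0.018 without the 3 low arrays. The other Stx1a probe set, 1448366_at, chosen for mention after its values were seen, gave 8.60, 8.69 and 8.93 as the lowest, median and highest Apoe-deficient array, against 9.15, 9.28, 9.18, 9.21 and 9.00 in wild-type arrays. Here all 6 Apoe-deficient arrays lay below all 5 wild-type arrays, as in 1.29% of probe sets past the filter in the lower direction. The difference was -0.43 (SE 0.11, limma adjusted p = 0.064 over the probe sets past the filter), -0.33 (limma adjusted p = 0.33) after blocking on the control level and -0.41 within the high level. Snap25, the membrane partner of syntaxin, gave 13.11, 13.52 and 13.70 as the lowest, median and highest Apoe-deficient array, against 13.43, 13.34, 13.41, 13.30 and 13.41 in wild-type arrays. These groups overlapped, with a difference of 0.095 (limma adjusted p = 0.56) over all arrays, -0.058 without the quantile step and -0.14 within the high level.

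The genes that recycle spent SNARE complexes had a median of -0.20, with 3 of 4 differences negative. Napb encodes beta-SNAP, the neuronal adaptor that brings NSF to the complex. Its brightest probe set, 1423173_at, gave 11.93, 12.32 and 12.49 as the lowest, median and highest Apoe-deficient array, against 12.76, 12.64, 12.38, 12.56 and 12.37 in wild-type arrays. The groups overlapped and 4 of 6 Apoe-deficient arrays lay below the wild-type range (difference -0.29, SE 0.11, limma adjusted p = 0.18). The other 4 Napb probe sets differed by 0.30, 0.22, -0.023 and -0.0018, and the mean of all 5 by 0.041. Nsf, the ATPase that pulls the complex apart, differed by -0.22 (limma adjusted p = 0.30) on the brighter probe set, which gave 10.81, 10.99 and 11.42 as the lowest, median and highest Apoe-deficient array, against 11.32, 11.41, 11.09, 11.24 and 11.22 in wild-type arrays. The other Nsf probe set differed by 0.093. Napa, which encodes alpha-SNAP, gave 11.21, 11.31 and 11.63 as the lowest, median and highest Apoe-deficient array, against 11.48, 11.59, 11.49, 11.56 and 11.58 in wild-type arrays. Only Apoe-deficient replicate 5 was not below the wild-type range (difference -0.19, limma adjusted p = 0.25; exact permutation p = 0.030), and the dimmer Napa probe set differed by 0.12. Napg, the gamma-SNAP gene, differed by 0.053 (limma adjusted p = 0.76) on the brighter probe set and by 0.24 on the other.

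Opposite signs within a gene were common. Of the 16 genes with at least 2 probe sets past the filter, 9 had probe sets of opposite sign, or 56.2%, against 36.9% of the 2936 such genes in the whole table. The comparison was not matched for the number of probe sets per gene, which was 5 for Napb and Vamp3. A gene with more probe sets has more chances of opposite signs. The brightest probe set had the lower difference, set against the mean of the others, in 13 of the 16, or 81.2%, against 60.3% of all such genes. The median gap was -0.18 here and -0.054 over all such genes. Rab3c, Rab3d, Stx1a, Syn2, Syt1, Syt4 and Napg were the 7 genes whose probe sets shared a sign. No target sequence of a probe set was used here, so what separates the probe sets of a gene was not tested.

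**Figure D3:**
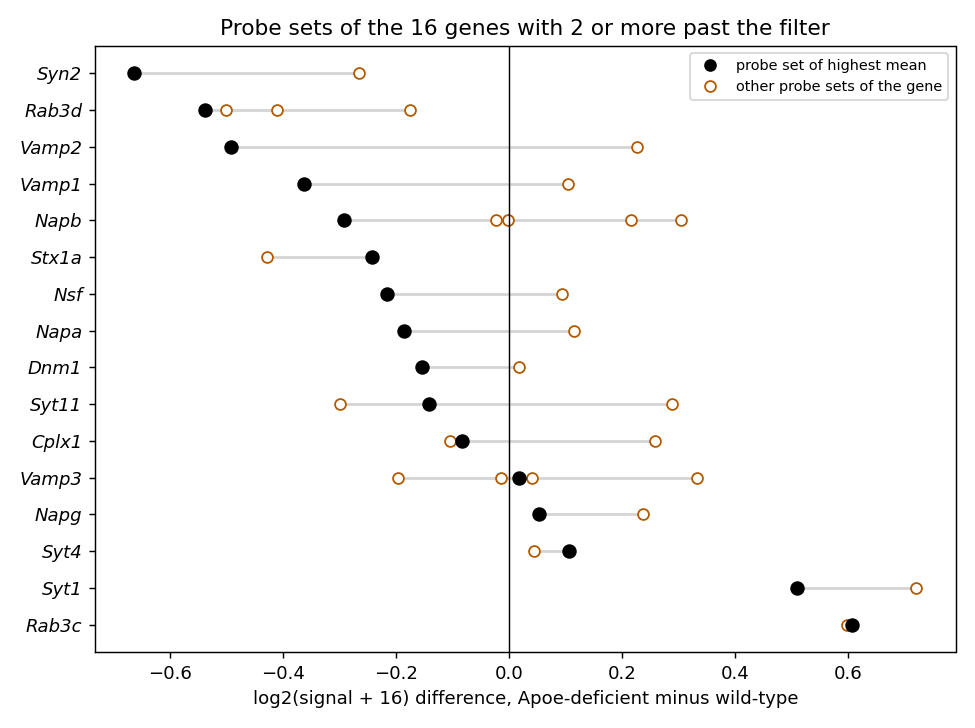
Differences in log2(signal + 16), Apoe-deficient minus wild-type, of every probe set past the filter for the 16 genes with at least 2. Filled points mark the probe set of highest mean and open points the others. Vamp2 runs from -0.49 to 0.23 and Napb from -0.29 to 0.30, while the Rab3c points lie together at 0.60 and 0.61.

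Among the synaptotagmins, Syt1 varied most between arrays. Syt1 encodes the calcium sensor of fast release. Its values were 8.63, 10.76 and 11.15 as the lowest, median and highest Apoe-deficient array, against 9.18, 9.82, 10.47, 10.48 and 10.07 in wild-type arrays. The other 5 Apoe-deficient arrays, at 10.65 or more, lay above every wild-type array, and Apoe-deficient replicate 1 lay below all of them. The mean was 10.51 ± 0.95 (SD, n = 6) in Apoe-deficient and 10.00 ± 0.54 (SD, n = 5) in wild-type ganglia, a difference of 0.51 (SE 0.38, limma adjusted p = 0.46; exact permutation p = 0.30). Without Apoe-deficient replicate 1 the difference was 0.88 (SE 0.21, limma adjusted p = 0.044).

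On the brightest Syt1 probe set, 1421990_at, the 2 lowest values belonged to the arrays of highest actin ratio. They came from Apoe-deficient replicate 1, with a ratio of 5.16, and wild-type replicate 1, with 3.55. With the logarithm of the ratio as a covariate the Syt1 difference was 0.28 (SE 0.20, limma adjusted p = 0.45), and without these 2 arrays it was 0.68 (limma adjusted p = 0.068). The second Syt1 probe set, 1431191_a_at, gave 7.64 in Apoe-deficient replicate 1 and 9.13 to 10.19 in the other Apoe-deficient arrays, against 8.29 to 9.32 in wild-type arrays. Here wild-type replicate 2, with 8.29 and a ratio of 2.90, lay just below wild-type replicate 1, with 8.32. The second probe set differed by 0.72 over all arrays (limma adjusted p = 0.33). Without the 3 arrays of low control level the difference of 1421990_at, the first probe set, was 0.18. For Rab3c on 1432432_a_at, too, the array of highest ratio was the lowest of its group, at 9.44 in Apoe-deficient and 8.65 in wild-type ganglia. Its difference was 0.56 (limma adjusted p = 0.051) with the same covariate.

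**Figure D4:**
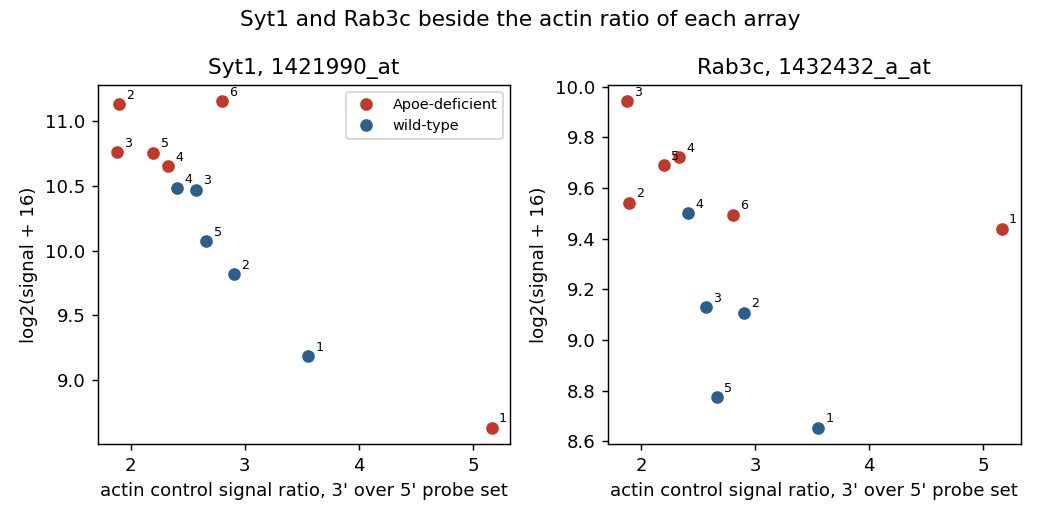
Syt1 (left) and Rab3c (right) in log2(signal + 16) against the ratio of the 3' to the 5' actin control signal, with Apoe-deficient and wild-type arrays in separate colours and replicate numbers beside the points. The arrays at ratios 5.16 and 3.55 hold the 2 lowest Syt1 values, at 8.63 and 9.18.

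Syt11, a synaptotagmin that does not bind calcium, had the smallest p of its family. Its brightest probe set, 1456464_x_at, gave 12.51, 12.63 and 12.79 as the lowest, median and highest Apoe-deficient array, against 12.95, 12.84, 12.80, 12.60 and 12.74 in wild-type arrays. The groups overlapped (difference -0.14, limma adjusted p = 0.32). Probe set 1455176_a_at gave 11.70, 11.90 and 11.95 as the lowest, median and highest Apoe-deficient array, against 12.33, 12.13, 12.16, 12.03 and 12.18 in wild-type arrays. This was the remaining probe set of the machinery whose groups did not overlap, which made 3 of 56 against 2.69% of all probe sets past the filter. Its difference was -0.30 (limma adjusted p = 0.080), while the dimmest Syt11 probe set, 1449264_at, differed by 0.29 (limma adjusted p = 0.24) with 5 of 6 Apoe-deficient arrays above the wild-type range. Syt4, which is found on dense-core vesicles, differed by 0.11 (limma adjusted p = 0.76), and by -0.14 without the 3 arrays of low control level.

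All 4 measured genes of the vesicle membrane and the synapsins had a negative difference, as did 57% of all genes tested. Their median was -0.30, against -0.041 over all genes, and none changed sign in the 30 other settings tried. A wider list of vesicle membrane genes was split. Of its 13 measured genes, 7 were positive and 6 negative, with a median of 0.0037. Synapsins tether vesicles to one another and to the cytoskeleton. Syn2, which encodes synapsin II, had the most negative difference of the 30 genes. It gave 10.17, 11.19 and 11.75 as the lowest, median and highest Apoe-deficient array, against 11.86, 12.07, 11.80, 11.46 and 11.52 in wild-type arrays. Apoe-deficient replicates 1 and 4 lay far below the wild-type range, and replicates 5 and 6 reached it. The mean was 11.08 ± 0.58 (SD, n = 6) in Apoe-deficient and 11.74 ± 0.25 (SD, n = 5) in wild-type ganglia, a difference of -0.66 (SE 0.23, limma adjusted p = 0.14; exact permutation p = 0.030). The second Syn2 probe set differed by -0.26. After blocking on the control level the Syn2 difference was -0.47 (limma adjusted p = 0.57), and within the high level it was -0.78.

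The other vesicle membrane genes lay closer to 0. Syp encodes synaptophysin, an abundant vesicle membrane protein, and gave 11.03, 11.48 and 11.66 as the lowest, median and highest Apoe-deficient array, against 11.86, 11.92, 11.83, 11.39 and 11.55 in wild-type arrays. The groups overlapped, with 2 Apoe-deficient arrays below the wild-type range (difference -0.31, SE 0.13, limma adjusted p = 0.21). After blocking on the control level the Syp difference was -0.15 (limma adjusted p = 0.70). Syn1, the synapsin I gene, differed by -0.29 (limma adjusted p = 0.33), and Sv2a, a vesicle glycoprotein that serves as a receptor for botulinum toxin, by -0.28 (limma adjusted p = 0.32).

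The priming genes had mixed signs. Unc13a encodes Munc13-1, which opens syntaxin and makes vesicles ready to fuse. It gave 7.60, 7.80 and 8.28 as the lowest, median and highest Apoe-deficient array, against 8.40, 8.56, 8.49, 8.03 and 7.90 in wild-type arrays. The groups overlapped, with 4 of 6 Apoe-deficient arrays below the wild-type range (difference -0.39, SE 0.17, limma adjusted p = 0.21; exact permutation p = 0.061). The difference was -0.39 (limma adjusted p = 0.53) after blocking on the control level and -0.78 within the high level. Unc13b, its relative Munc13-2, differed by 0.10 (limma adjusted p = 0.70). Cadps, which encodes CAPS, a priming factor of dense-core vesicles, differed by 0.088 (limma adjusted p = 0.74), and by -0.32 within the high level.

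The family median was -0.065 for the complexins, -0.20 for the endocytic genes and -0.10 for the synucleins. Cplx1, the complexin 1 gene, gave 12.67, 12.92 and 13.26 as the lowest, median and highest Apoe-deficient array, against 13.09, 13.27, 12.98, 12.80 and 13.00 in wild-type arrays. Its groups overlapped and its 3 probe sets differed by 0.26, -0.083 and -0.10, the brightest by -0.083 (limma adjusted p = 0.71). Cplx2 differed by -0.048 (limma adjusted p = 0.92). Amph encodes amphiphysin, which recruits dynamin to the neck of a forming vesicle. It gave 10.45, 10.85 and 11.23 as the lowest, median and highest Apoe-deficient array, against 11.27, 11.19, 11.21, 10.87 and 11.25 in wild-type arrays. Wild-type replicate 4 lay near the Apoe-deficient median, and Apoe-deficient replicate 5, at 11.23, reached into the range of the other wild-type arrays. The groups thus overlapped (difference -0.29, limma adjusted p = 0.24). Blocking on the control level gave -0.076. Bin1, its relative amphiphysin 2, differed by -0.20 (limma adjusted p = 0.46). Dnm1, the neuronal dynamin gene, gave 9.95, 10.47 and 11.24 as the lowest, median and highest Apoe-deficient array, against 10.50, 11.04, 11.00, 10.39 and 10.64 in wild-type arrays. It differed by -0.15 (limma adjusted p = 0.68) over all arrays and by 0.16 after blocking on the control level. Sncb, the beta-synuclein gene, gave 9.18, 9.82 and 9.99 as the lowest, median and highest Apoe-deficient array, against 9.99, 10.29, 10.10, 9.64 and 9.76 in wild-type arrays, a difference of -0.22 (limma adjusted p = 0.42) with overlap. Sncg, the gamma-synuclein gene, differed by 0.020 (limma adjusted p = 0.91), and by -0.19 without the quantile step.

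Set side by side, the family medians were -0.24 for the SNAREs, -0.12 for Rab3 and its effectors, 0.11 for the synaptotagmins and -0.20 for the endocytic genes. The members ran over -0.49 to 0.095 for the SNAREs, -0.54 to 0.61 for the Rab3 genes, -0.14 to 0.51 for the synaptotagmins and -0.29 to -0.15 for the endocytic genes. The families were not tested against one another.

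Per array, the mean over the 30 genes, each centred on its own mean, ran from -0.28 to 0.17 in Apoe-deficient and from -0.066 to 0.22 in wild-type ganglia. Apoe-deficient replicate 1 was lowest and wild-type replicate 2 highest, and the groups overlapped. Of the markers of noradrenergic neurons, 13 of 16 were measured and 0 passed, with a median of -0.021. Their summed signal was 67039 to 80225 in Apoe-deficient and 71827 to 78795 in wild-type arrays. The 13 differences were spread widely, from -0.50 for Phox2a to 1.62 for Slc18a1. At an unadjusted limma p under 0.05, 3 of the 13 were higher and 2 lower, against 7.92% and 12.3% of all genes. Of the general neuron markers, 11 of 12 were measured and 0 passed, with a median of -0.031 and a summed signal of 62779 to 77560 in Apoe-deficient and 69891 to 78917 in wild-type arrays. With the noradrenergic score as a covariate the median over the 30 genes was -0.26 and Vamp2 passed (-0.51, limma adjusted p = 0.045).

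Markers of several other cell types passed the test. Of the macrophage markers, 10 of 13 rose and 0 fell, with a summed signal of 12050 to 16946 in Apoe-deficient and 7035 to 8925 in wild-type arrays. Of the mast cell markers, 4 of 5 rose, by 1.48 to 2.47, with a summed signal of 1621 to 4906 in Apoe-deficient and 618 to 1651 in wild-type arrays. Among them, Tpsb2 averaged 7.51 in Apoe-deficient and 5.48 in wild-type arrays. Tpsb2 passed the filter on low signal through the Apoe-deficient arrays, where it is high. Of the plasma cell markers, 2 of 4 measured rose, Jchain by 4.33 and Ighm by 3.76, with a summed signal of 15018 to 39343 in Apoe-deficient and 619 to 16840 in wild-type arrays. Among fibroblast markers 1 of 8 rose (Postn, by 1.10), and among sensory neuron markers 1 of 2 measured fell (Avil, by 0.62 on the log2 scale). White adipocyte markers passed in 0 of 9 measured, out of 12 listed, with a median of -0.66 and summed signals of 8630 to 44935 in Apoe-deficient and 21077 to 65535 in wild-type arrays. Brown adipocyte markers passed in 0 of 5 measured, out of 7 listed, and all 5 were negative, with a median of -0.78. Their summed signal was 786 to 2992 in Apoe-deficient and 1828 to 6712 in wild-type arrays. The part of these cells in the differences of the 30 genes was not tested, beyond the covariates given. In such bulk RNA, fewer cells of a type and less RNA per cell cannot be told apart.

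**Figure D5:**
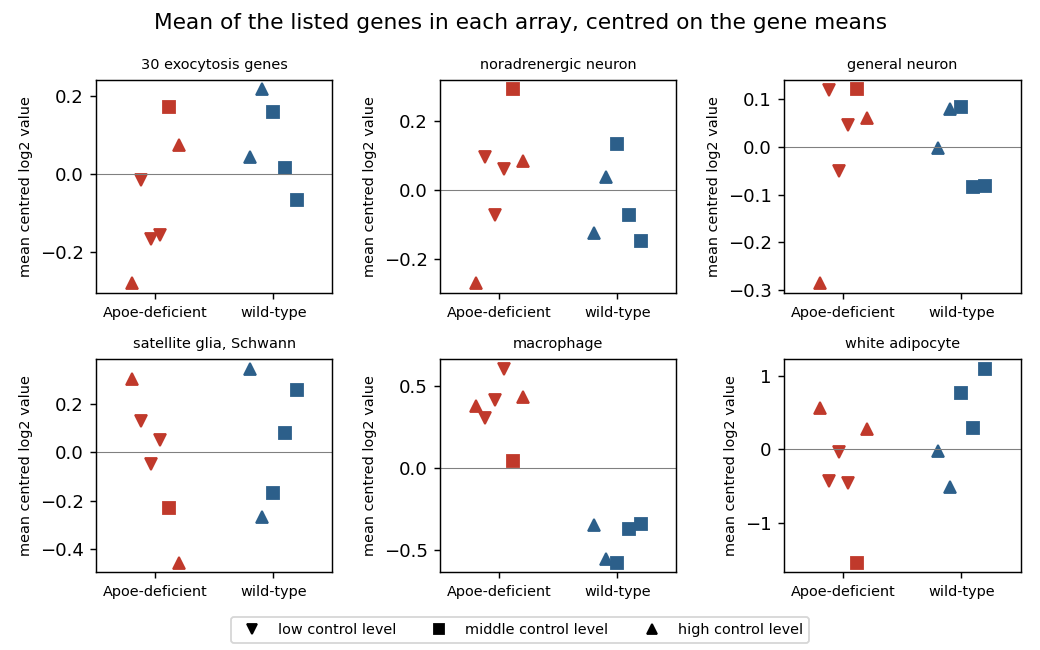
Mean over the listed genes in each array, in log2(signal + 16) centred on each gene's mean, for the 30 exocytosis genes and 5 marker lists, with Apoe-deficient left of wild-type and marker shapes for the hybridisation control level. The exocytosis means overlap between the groups, from -0.28 to 0.17 and from -0.066 to 0.22, while the macrophage means do not.

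Other genes of release and retrieval were read from a list of 110, of which 72 were measured and 2 passed, against 1.93% of all genes. Of the 72, 36 differences were positive and 36 negative, and the median was 0.00. Snap23 encodes the widely expressed relative of SNAP-25 that serves secretion in many non-neuronal cells. It gave 6.93 to 7.69 in the Apoe-deficient arrays, against 6.24, 5.82, 6.32, 6.90 and 6.68 in wild-type arrays. All 6 Apoe-deficient arrays were higher, though the lowest lay just above wild-type replicate 4. The mean was 7.33 ± 0.29 (SD, n = 6) in Apoe-deficient and 6.39 ± 0.42 (SD, n = 5) in wild-type ganglia, a difference of 0.94 (SE 0.22, limma adjusted p = 0.040). Most wild-type values lay below the filter on low signal, so Snap23 entered the test through the Apoe-deficient arrays, where it is high. Without the filter it was not called (limma adjusted p = 0.054), and the stricter filter at the 60th percentile left it out. Snap23 also lost the call after blocking on the control level (0.78, limma adjusted p = 0.23) and within the high level (1.13, limma adjusted p = 0.47). The call was kept in 14 of the 28 settings tried besides the one reported. The macrophage, mast cell and plasma cell markers moved with it, and their part in it was not tested.

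Atp6v1e1 encodes a subunit of the proton pump that acidifies vesicles. It gave 12.94 to 13.08 in the Apoe-deficient arrays, against 13.31, 13.25, 13.18, 13.27 and 13.27 in wild-type arrays. All 6 Apoe-deficient arrays were lower, by a small margin. The mean was 13.01 ± 0.057 (SD, n = 6) in Apoe-deficient and 13.26 ± 0.047 (SD, n = 5) in wild-type ganglia, and Atp6v1e1 fell by 0.25 on the log2 scale (SE 0.059, limma adjusted p = 0.046). The call held in 8 of the 29 settings tried besides the one reported. It was lost after blocking on the control level (-0.26, limma adjusted p = 0.17) and within the high level (-0.32, limma adjusted p = 0.48). Settings of the processing that lost it included no quantile step (-0.34, limma adjusted p = 0.13) and cyclic loess (-0.26, limma adjusted p = 0.089). The mean of probe sets (-0.35, limma adjusted p = 0.11) and a fit without the intensity trend (-0.25, limma adjusted p = 0.14) lost it too.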

How the data were processed

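Total RNA was measured on 11 single-colour Affymetrix arrays. The authors deposited linear intensity values, 1 signal per probe set, made with GCOS 1.4 according to the submitters' processing notes. The settings of that software are not given in these sources. The authors had scaled arrays to a common level: the 2% trimmed mean was near 500.2 in all 11, while their quantiles differed. The number of arrays limits the precision. Rank correlations ran from 0.95 to 0.98 within Apoe-deficient arrays, from 0.96 to 0.97 within wild-type arrays and from 0.94 to 0.97 between groups, with 0 identical pairs.

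Of 22690 probe sets, 64 controls were left out, 20380 carried 1 gene symbol in the platform annotation, 691 several and 1555 none; only the first kind was named. The logarithm, log2(signal + 16), was quantile normalised. A probe set had to exceed percentile 40 of the table in 5 or more arrays, and the brightest one stood for its gene. Groups were compared with limma 3.58.1 in R 4.3.3, two-sided with an intensity trend and a threshold of 0.05. Single values were compared by an exact two-sided permutation test over 462 splits (scipy 1.17.1). Its p was 0.0043 where the groups did not overlap, the smallest it can give. The limma test was checked on simulated data, and figures used matplotlib 3.10.9. The limma adjusted p-values were adjusted over every gene or probe set tested. Permutation p-values, and limma p-values called unadjusted, were not adjusted.

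Values are printed for each family's member of smallest p, the 8 members of smallest p, members whose probe sets differed in sign and other exocytosis genes that passed; the second Stx1a probe set, Syt1, Snap25, Rab3b, Syt4, Rab3a and Cadps were singled out after their values were seen. The members, gene lists and tests were chosen with earlier results of these data known. Alternatives covered normalisation, pseudocount, filter, probe set rule, variance model, array weights, covariates, blocks and single arrays left out.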

Additional observations from a re-analysis of the deposited data

Results flagged for a closer look

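Among 60 groups of array values, 2 for each of the 30 genes, 5 held an array set apart from its group by Dixon's criterion, which chance meets in about 1 of 20 groups. Apoe-deficient replicate 1 was the array in 3 of them: it was lowest for Syt1 at 8.63, where the next Apoe-deficient array had 10.65, for Syt4 at 12.0 (next 12.66) and for Cadps at 11.29 (next 11.93). This array also had the highest actin ratio, at 5.16, and the part of that ratio in these values was not tested beyond the covariate. Apoe-deficient replicate 5 was highest for Rab3a at 11.38, where the next had 10.74. Wild-type replicate 4 was lowest for Amph at 10.87, where the next had 11.19.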

How the results depend on the processing

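Under 30 other settings the 30 genes gave between 0 and 3 calls. The count was 3 with array weights (Vamp2, Vamp1 and Rab3c), 2 with the replicate block (Rab3c and Syn2), 1 with the noradrenergic score as a covariate (Vamp2), and 1 with the mean of probe sets, with every probe set or with a stricter filter at the 60th percentile (Rab3c each time). Without 1 array at a time it ran from 0 to 3: 3 without Apoe-deficient replicate 1 (Vamp2, adjusted p = 0.040, Rab3c, 0.040, and Syt1, 0.044, in limma), 2 without wild-type replicate 4 (Vamp2, limma adjusted p = 0.034, and Rab3c, 0.019) and 1 without Apoe-deficient replicate 5 (Vamp2) or 6 (Rab3c). Rab3c was called in 8 settings, Vamp2 in 5, and Syn2, Syt1 and Vamp1 in 1 each. The Rab3c difference ran from 0.50 to 0.72 (limma adjusted p from 0.019 to 0.48) and that of Vamp2 from -0.56 to -0.13 (0.022 to 0.64).

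The count over all genes, 163 as reported, was 668 with array weights (290 higher and 378 lower), 258 with the noradrenergic score, 76 without the 2 arrays of highest actin ratio, 45 with the control level as a block, 35 without the 3 low arrays, 5 within the high level, and 75 to 266 without 1 array at a time (without wild-type replicate 4, equal counts of 133 each way). The median over the 30 genes, -0.19 as reported, was -0.035 with every probe set, -0.056 with their mean, -0.068 with the control level as a block, -0.083 without the 3 low arrays, -0.28 to -0.13 without 1 array at a time and -0.28 to -0.17 in the rest. The actin settings and the high level alone were added after seeing the data. Low arrays were all Apoe-deficient, so for them level and genotype cannot be told apart.

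Of the 30 genes, 17 kept their sign throughout. Without the quantile step the sign turned for Rab3b (-0.00102), Snap25 (-0.058) and Sncg (-0.19), and with cyclic loess for Sncg (-0.092). With the mean of probe sets it turned for Cplx1 (0.024) and Napb (0.041), and with array weights for Cplx2 (0.039). Blocking on the control level turned it for Cadps (-0.070), Cplx1 (0.10), Cplx2 (0.00388), Dnm1 (0.16), Napg (-0.039), Snap25 (-0.00388), Sncg (-0.067) and Syt4 (-0.047). Without the 3 low arrays it turned for Cadps (-0.086), Cplx1 (0.14), Dnm1 (0.12), Napg (-0.054), Snap25 (-0.026), Sncg (-0.068), Stx1a (0.018) and Syt4 (-0.14). Within the high level it turned for Cadps (-0.32), Napg (-0.10), Snap25 (-0.14), Sncg (-0.23) and Unc13b (-0.12). For each of these genes the lowest Apoe-deficient array was replicate 1, which is in the high level and has the highest actin ratio. With the noradrenergic score the sign turned for Rab3b (-0.014). With the white adipocyte score it turned for Cadps (-0.029), Rab3b (-0.011), Sncg (-0.046) and Unc13b (-0.026). With the actin ratio it turned for Sncg (-0.00437), and without the 2 arrays of highest ratio for Rab3b (-0.011) and Vamp3 (-0.00356). Without 1 array at a time it turned for Cplx2 (-0.22 to 0.068), Rab3b (-0.044 to 0.088), Sncg (-0.037 to 0.058) and Vamp3 (-0.00209 to 0.055). The cause of these turns was not tested.

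No label says whether arrays of the same replicate number were paired. Deviations of same-numbered arrays from their group means correlated at 0.15, -0.18, -0.032, -0.00032 and -0.18. Other pairs of arrays were not set beside them, so these values cannot decide the question. With the replicate block 185 genes were called, the median over the 30 genes was -0.21, and Rab3b (-0.00354) and Vamp3 (-0.00206) turned sign.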

Other observations

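The calcium sensor and priming genes outside the 30 lay on one side. All 7 that were measured, of 16 listed, had a negative difference, from -0.56 to -0.13 with a median of -0.31, against a median of -0.041 over all genes, and 0 passed (smallest limma adjusted p = 0.11). They were Syt2 (-0.56), Doc2b (-0.50), Syt3 (-0.46), Syt17 (-0.31), Cadps2 (-0.25), Syt5 (-0.24) and Syt9 (-0.13), named after their values were seen. Of the 21 measured genes of the wider endocytosis list, 11 were positive and 10 negative, with a median of 0.0055 and 0 passing. Stx2, a membrane SNARE gene (-0.46, SE 0.12, limma adjusted p = 0.072), Syngr1, the synaptogyrin gene (-0.49, limma adjusted p = 0.079), and Vamp8, a SNARE gene of granule secretion and endosome fusion (0.38, limma adjusted p = 0.13), came next after Snap23 and Atp6v1e1 in p, with Doc2b among them.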
